A study of Rattus norvegicus with 9 samples.

Results

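The genes of DNA replication and of the step from G1 to S phase were followed in lung fibroblasts of rat pups at postnatal days 2, 7 and 21. The group was a list of 43 genes, taken by name for replication licensing, the polymerases, nucleotide synthesis and targets of the E2F factors. Of these, 40 were measured by a probe set carrying that gene symbol alone, out of 14217 genes so measured on the array. Cdc6, Gins2 and Rrm2 had no such probe set and are left out of all counts. Where a gene had more than 1, the probe set with the highest mean log2 value stands for it. The series held 9 Affymetrix expression arrays, 3 per day, each from a different litter. Cells of 5 pups were pooled per array at day 2, a saccular stage before septa form, and of 4 pups at day 7, during septation, and at day 21, after its end. No treatment, strain or genotype separates the groups in the labels, so as labelled the days differ in age and, for day 2, in the number of pups pooled. Cells were not sorted: they were lung cells freed with trypsin and collagenase that held to plastic within a short plating, and they were not cultured further.

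A cell that is to divide first loads origins of replication. The origin recognition complex, Cdc6 and Cdt1 place rings of the Mcm2 to Mcm7 helicase on DNA in G1, and geminin blocks Cdt1 once S phase has begun. Cyclin E with Cdk2 and the E2F factors drive the step into S phase, when Cdc45 and the GINS complex turn the loaded ring into an active helicase and the polymerases copy DNA behind it with the sliding clamp Pcna. Many of these genes are known targets of E2F factors, which bind short GC-rich words in their promoters, and in the early postnatal lung fibroblast division is part of septal growth.

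Part of the promoters of the group hold such words. A window from 250 bases before to 50 bases after the annotated start was taken for 37 of the 43 genes from RefSeq (rat assembly GRCr8), and 4 words of 8 bases were searched on both strands: TTTCGCGC, TTTGGCGC, TTTCCCGC and TTTGCCGC. At least 1 match lay in a window of 18 of the 37 genes (48.6%), against 2.37% of the windows of 27457 genes, and 9 held 2 or more. The list was taken in part for targets of E2F factors, so an excess over all genes was favoured by that choice. The stretches below, all upstream of the start, are shown for helicase, GINS, polymerase, thymidylate synthase and checkpoint kinase genes described below, written 5′ to 3′ along the gene's strand. Capitals mark the matches.
Mcm2, chr4:122918095-122918138, minus strand: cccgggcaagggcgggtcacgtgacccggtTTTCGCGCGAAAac
Mcm6, chr13:42404450-42404521, minus strand: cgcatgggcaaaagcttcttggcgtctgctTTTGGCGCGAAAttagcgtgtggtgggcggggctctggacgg
Mcm7, chr12:22163193-22163428, minus strand: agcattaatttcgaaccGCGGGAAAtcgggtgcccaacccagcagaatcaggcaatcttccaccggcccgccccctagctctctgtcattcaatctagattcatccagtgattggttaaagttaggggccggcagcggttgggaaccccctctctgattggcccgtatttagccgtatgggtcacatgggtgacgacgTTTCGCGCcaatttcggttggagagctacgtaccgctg
Gins1, chr3:160184865-160184919, plus strand: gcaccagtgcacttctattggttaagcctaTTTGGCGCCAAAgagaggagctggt
Pola1, chrX:62342490-62342557, minus strand: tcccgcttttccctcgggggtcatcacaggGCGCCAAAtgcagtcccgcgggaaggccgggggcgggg
Tyms, chr9:120776084-120776150, minus strand: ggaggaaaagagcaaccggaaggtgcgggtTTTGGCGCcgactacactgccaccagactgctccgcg
Chek1, chr8:44629844-44629901, minus strand: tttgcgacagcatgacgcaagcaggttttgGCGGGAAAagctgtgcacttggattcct
In Mcm2, Mcm6 and Gins1 the capitals are 2 matches on opposite strands that overlap in their central bases. The CCAAT word was found in 56.8% of the group's windows and in 39.6% of all windows, and TTTGAA, the core of the element of late cell cycle promoters, in 8.11% and 19.4%. Median GC content was 60% in the group and 52.3% over all genes, and the part of base content in these shares was not tested. A match is a string of letters and does not show binding.

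Arrays of a day correlated at 0.976 to 0.988 over probe sets and arrays of different days at 0.881 to 0.974, and array medians were log2 5.24 to 5.66. The 13 fibroblast markers, collagens among them, averaged log2 10.02 to 10.59 per array, with 0 of them below log2 4.25 on all arrays; this 25th percentile of the values is called the low end here. Markers of other cell types were detected too. Macrophage markers (17 of 19 measured) averaged log2 9.13 to 9.37 at day 2, 7.56 to 8.30 at day 7 and 9.55 to 9.99 at day 21. Of 8 measured lymphocyte markers, Cd3e, Cd3d and Ms4a1 lay below the low end on all arrays, while Cd2 and Lck were called higher from day 7 to day 21 (log2 changes of 1.03 and 0.74). In such mixed samples fewer dividing cells and less of these RNAs per cell cannot be told apart. Values are log2 intensities, so levels are compared between days for 1 gene and never between genes, and the number of arrays limits precision.

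Most replication genes were at their highest at day 7 or day 2 and fell to day 21. The day with the highest mean was day 7 for 28 of the 40 genes, day 2 for 10 and day 21 for 2, Mcm10 and Pcna, and the lowest mean was at day 21 for 38. From day 7 to day 21 limma called 32 genes lower and 1 higher at an adjusted p under 0.05, and 23 of the 32 fell at least 2-fold. Over all 14217 genes 24.4% were called lower and 13.7% higher. The median log2 change of the group was -1.20, or 2.30-fold lower, beside -0.01 over all genes. From day 2 to day 7 limma called 4 genes higher, Pola2, Rfc2, Tyms and Dut, and 0 lower, with 14 higher and 0 lower at an unadjusted p under 0.05. At that unadjusted threshold 2451 of all 14217 genes were higher and 1354 lower. Over all genes 7.02% were called higher and 4.41% lower in that comparison, and the median change was 0.32 in the group beside 0.07 over all genes. Between days 2 and 21, 29 genes were lower and 1 higher, beside 15.3% and 8.8% of all genes, with a median of -0.97 beside 0.02. All 3 comparisons use the same 9 arrays and each pair of them shares a day, so their values are given side by side and not as support for each other.

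**Figure D1:**
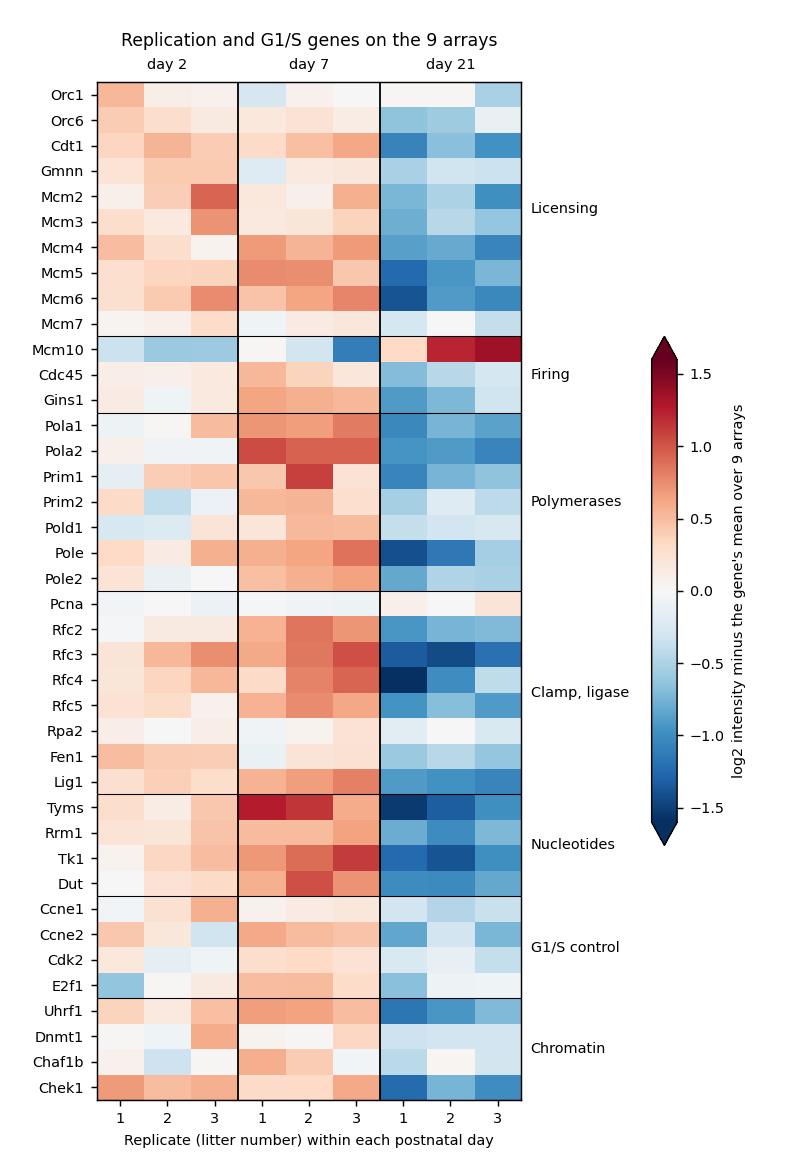
Log2 intensity of the 40 genes on each of the 9 arrays, with the mean of the gene over the arrays subtracted; rows are genes in order of role and columns are replicates within a day. The day 21 columns are blue for most genes. Means of Mcm10 and Pcna were highest at day 21, and some day 21 arrays of Orc1, Mcm7 and Chaf1b lay slightly above the gene's mean.

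Licensing genes fell after day 7. Of the 10 measured, none was called between days 2 and 7 by limma (1 higher and 0 lower at an unadjusted p under 0.05), 7 fell from day 7 to day 21 and 8 were lower at day 21 than at day 2. At the unadjusted threshold 2451 of all 14217 genes were higher and 1354 lower. Limma called 24.4% of all genes lower from day 7 to day 21 and 15.3% between days 2 and 21. These shares also stand beside the counts of the other roles below. Mcm6, a subunit of the helicase ring whose promoter is printed above, was at log2 7.51, 7.67 and 8.01 at day 2, 7.71, 7.88 and 8.03 at day 7 and 5.88, 6.35 and 6.23 at day 21. The day 21 arrays lay below all others, and the fall from day 7 was 3.30-fold (log2 change -1.72, SE 0.18, from 3 arrays a day, with a limma adjusted p = 2.71e-05). Mcm5 fell by 1.61 ± 0.17, Mcm4 by 1.55 ± 0.16, Mcm2 by 1.01 ± 0.23 and Mcm3 by 0.85 ± 0.18 on the log2 scale. Mcm7 is a subunit of the same ring. Its arrays were at log2 8.60, 8.64 and 8.85 at day 2, 8.49, 8.69 and 8.73 at day 7 and 8.28, 8.57 and 8.17 at day 21, and days 7 and 21 overlapped. The log2 change was -0.30 ± 0.16 (limma adjusted p = 0.197), while the median over Mcm2 to Mcm7 was -1.28. Cdt1, the loading factor, was at log2 7.279, 7.453 and 7.591 at day 7 and at 5.907, 6.302 and 5.998 at day 21. It fell 2.59-fold (log2 change -1.37 ± 0.16, limma adjusted p = 4.91e-05). Its inhibitor geminin (Gmnn) changed by -0.44 ± 0.16 from day 7 to day 21, which was not called (limma adjusted p = 0.0535), and was lower at day 21 than at day 2 by log2 -0.74 ± 0.16 (limma adjusted p = 0.00674). The second Gmnn probe set changed by 0.07 ± 0.21 between days 2 and 21. With the mean of both probe sets the Gmnn call was lost (limma adjusted p = 0.0747). Orc6, a subunit of the origin recognition complex, fell by 0.62 ± 0.17 from day 7, a call lost without day 7 replicate 2, day 21 replicate 1 or day 21 replicate 2 (limma adjusted p = 0.0507, 0.0612 and 0.0521), after centring of the arrays on their medians (0.0658) and after a further quantile normalization (0.0713). Orc1, another subunit, lay below the low end on every array but 1, at log2 3.30 to 4.34, so its change of -0.09 could not be resolved.

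**Figure D2:**
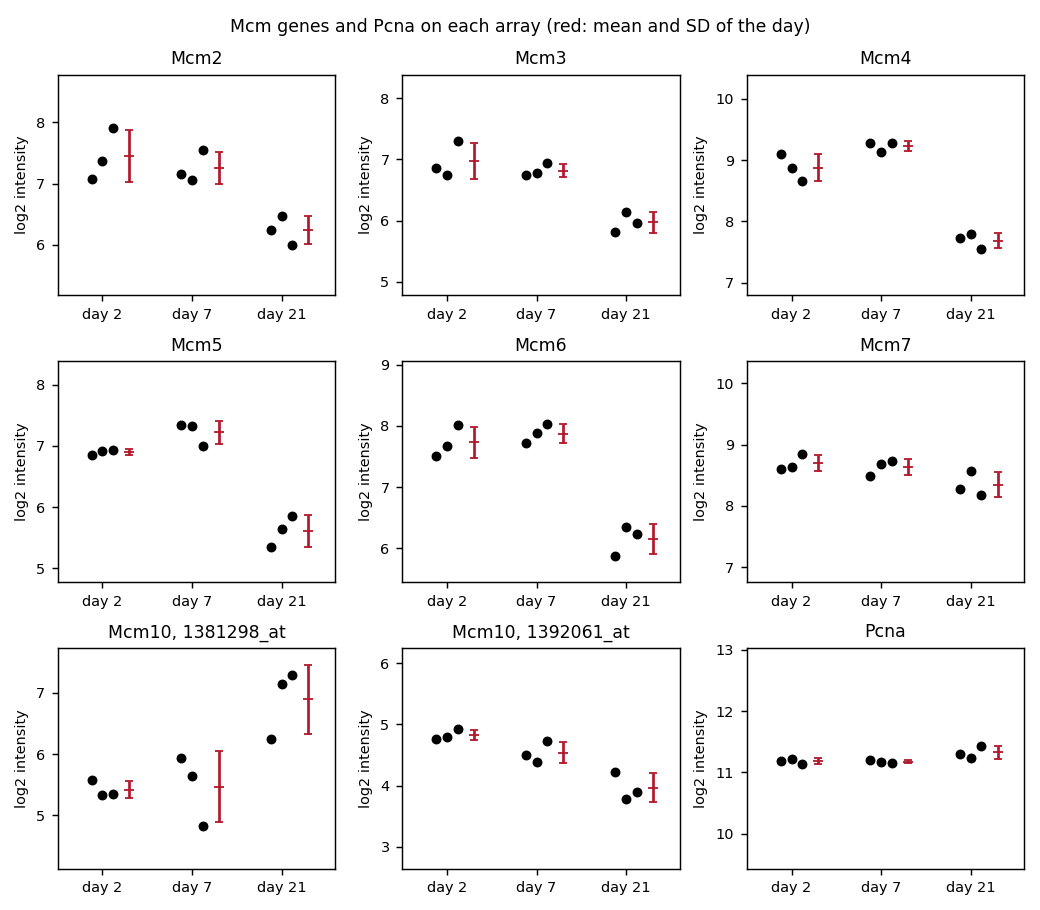
Log2 intensity of Mcm2 to Mcm7, of both Mcm10 probe sets and of Pcna on each array by postnatal day, with the mean and SD of the day in red. The axes span the same number of log2 units, so heights of change can be compared: Mcm6 fell by 1.72 from day 7 to day 21, Mcm7 changed by -0.30 and Pcna by 0.15.

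Of the genes that fire origins, Cdc45 and Gins1 fell and Mcm10 was called higher on its brightest probe set. Gins1, a subunit of the GINS complex, was at log2 6.16, 5.96 and 6.19 at day 2, 6.66, 6.59 and 6.55 at day 7 and 5.11, 5.30 and 5.70 at day 21. Its arrays separated all 3 days, with a fall of 2.34-fold from day 7 (log2 change -1.23 ± 0.17, limma adjusted p = 0.000176), and the difference of 0.50 between days 7 and 2 was not called (limma adjusted p = 0.1). Cdc45 fell by 0.83 ± 0.16. Mcm10, which helps the helicase start, has a pair of probe sets that were called in opposite directions. On the brighter it was at log2 5.94, 5.64 and 4.82 at day 7 and 6.25, 7.14 and 7.29 at day 21, a change of 1.43 ± 0.31 (limma adjusted p = 0.0035). On the dimmer it was at log2 4.50, 4.39 and 4.72 at day 7 and 4.23, 3.79 and 3.89 at day 21, a change of -0.57 ± 0.16 (limma adjusted p = 0.0202). The dimmer probe set ended below the low end, and which of them reports the Mcm10 transcript was not tested, so the direction of Mcm10 is uncertain. With the mean of both in place of the brightest, the call between days 2 and 21 was lost (limma adjusted p = 0.153).

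All 7 measured polymerase and primase genes fell from day 7 to day 21, after day 7 means that were above those of day 2 in all 7. Pola2, the accessory subunit of polymerase alpha, which begins each new strand, was at log2 7.136, 6.994 and 6.991 at day 2, 8.098, 7.997 and 8.001 at day 7 and 6.104, 6.142 and 5.997 at day 21. No arrays of different days overlapped. It rose 1.99-fold to day 7 (log2 change 0.99 ± 0.14, limma adjusted p = 0.00186) and fell 3.87-fold to day 21 (-1.95 ± 0.14, limma adjusted p = 1.36e-06). Pola1, its catalytic partner, fell 3.06-fold from day 7 (log2 change -1.61 ± 0.18), and its difference between days 7 and 2, 0.59 ± 0.18, missed the threshold (limma adjusted p = 0.0624). The primase genes Prim1 and Prim2 fell by 1.40 ± 0.24 and 0.83 ± 0.19. Of the polymerases that extend the strands, Pole, catalytic subunit of the leading strand enzyme, was at log2 5.78, 5.84 and 6.08 at day 7 and 3.80, 4.07 and 4.66 at day 21. It fell 3.30-fold (log2 change -1.72 ± 0.22, limma adjusted p = 8.6e-05), to a day 21 mean below the low end. Its partner Pole2 fell by 1.17 ± 0.16 and Pold1, catalytic subunit of polymerase delta, by 0.72 ± 0.17. Prim2 and Pold1 were not called between days 2 and 21, with changes of -0.32 and -0.23.

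The clamp loader genes fell, and the clamp gene was not called. Rfc2 to Rfc5, subunits of replication factor C, which opens the Pcna ring and sets it on DNA, were all 4 lower at day 21 than at day 7, with a median log2 change of -1.61. Rfc3 was at log2 7.66, 7.89 and 8.09 at day 7 and 5.72, 5.62 and 5.85 at day 21. These groups lay far apart, a 4.43-fold fall (log2 change -2.15 ± 0.18, limma adjusted p = 4.74e-06). Rfc4 was uneven at day 21, at log2 5.58, 6.31 and 6.89, and fell by 1.72 ± 0.29. Rfc5 fell 2.81-fold and Rfc2 2.82-fold, the latter after a rise of 0.62 ± 0.15 from day 2 to day 7 (limma adjusted p = 0.0239). Pcna was at log2 11.19, 11.22 and 11.13 at day 2, 11.20, 11.17 and 11.15 at day 7 and 11.31, 11.23 and 11.43 at day 21. The day 21 arrays were the highest by a small margin, and the change from day 7 was 0.15 ± 0.13 (limma adjusted p = 0.446). Lig1, the ligase that joins lagging strand fragments, fell 3.14-fold (log2 change -1.65 ± 0.14), and Fen1, the nuclease that trims them, fell by 0.66 ± 0.15. Rpa2, of the complex that coats single-stranded DNA, changed by -0.22 ± 0.15 and was not called (limma adjusted p = 0.3).

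Nucleotide synthesis genes had the largest median change of the roles, -1.91 from day 7 to day 21, with all 4 lower. Tyms, the enzyme that makes thymidylate, was at log2 5.12, 4.96 and 5.28 at day 2, 6.10, 5.99 and 5.44 at day 7 and 3.31, 3.53 and 3.87 at day 21. Its days did not overlap, and it rose by 0.72 ± 0.21 to day 7 (limma adjusted p = 0.0499) before a 4.84-fold fall (log2 change -2.27 ± 0.21, limma adjusted p = 8.5e-06). All of its day 21 arrays lay below the low end, so that fold is open to background. Tk1, the thymidine kinase of the salvage route, was at log2 7.72, 7.92 and 8.15 at day 7 and 5.77, 5.64 and 6.04 at day 21. It fell 4.32-fold (log2 change -2.11 ± 0.18, limma adjusted p = 5.42e-06), from day 7 levels 0.61 ± 0.18 above day 2 that were not called (limma adjusted p = 0.0564). Dut, which removes dUTP, rose by 0.59 ± 0.16 to day 7 (limma adjusted p = 0.0455) and fell 3.29-fold to day 21 (log2 change -1.72 ± 0.16). The second, dimmer Dut probe set changed by -0.38 ± 0.23 from day 2 to day 7 and was not called (limma adjusted p = 0.392). With the mean of both probe sets the call of a rise was lost (limma adjusted p = 0.7295). Rrm1, the large subunit of ribonucleotide reductase, fell by 1.39 ± 0.15.

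All 4 G1/S control genes fell from day 7 to day 21, with a median log2 change of -0.62. Ccne2, a cyclin E, was at log2 6.91, 6.81 and 6.75 at day 7 and 5.47, 5.99 and 5.57 at day 21, and fell 2.21-fold (log2 change -1.14 ± 0.21, limma adjusted p = 0.00115). The other cyclin E gene, Ccne1, fell by 0.50 ± 0.17 and their kinase Cdk2 by 0.53 ± 0.15. E2f1, an activating E2F factor, was at log2 5.502, 5.511 and 5.295 at day 7 and 4.340, 4.927 and 4.933 at day 21. That fall was 1.63-fold (log2 change -0.70 ± 0.23, limma adjusted p = 0.0336). The calls of Ccne1, Cdk2 and E2f1 were each lost with every array centred on its own median (limma adjusted p = 0.211, 0.0929 and 0.0791). Ccne1 also lost its call when any single array of days 7 or 21, or day 2 replicate 2, was left out (limma adjusted p = 0.0587 to 0.114). Cdk2 lost it without day 7 replicate 2 (limma adjusted p = 0.0583) or day 21 replicate 3 (0.0607), and E2f1 without day 7 replicate 1 (limma adjusted p = 0.0855), day 7 replicate 2 (0.0928) or day 21 replicate 1 (0.135). Whether control genes and nucleotide synthesis genes changed by different amounts was not tested.

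Among chromatin and checkpoint genes, Uhrf1 and Chek1 fell and Dnmt1 and Chaf1b were not called. Chek1, a kinase of the replication checkpoint, was at log2 6.77, 6.58 and 6.66 at day 2, 6.40, 6.41 and 6.70 at day 7 and 4.87, 5.35 and 5.09 at day 21. It fell 2.64-fold from day 7 (log2 change -1.40 ± 0.17, limma adjusted p = 5.73e-05) and 2.96-fold between days 2 and 21 (-1.57 ± 0.17). Uhrf1, which recruits the maintenance methyltransferase to new DNA, was at log2 6.24, 6.22 and 6.08 at day 7 and 4.42, 4.65 and 4.88 at day 21, and fell by 1.53 ± 0.16. Dnmt1, that methyltransferase, changed by -0.45 ± 0.19 (limma adjusted p = 0.0949) and Chaf1b, a histone chaperone of new DNA, by -0.54 ± 0.20 (limma adjusted p = 0.0615).

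**Figure D3:**
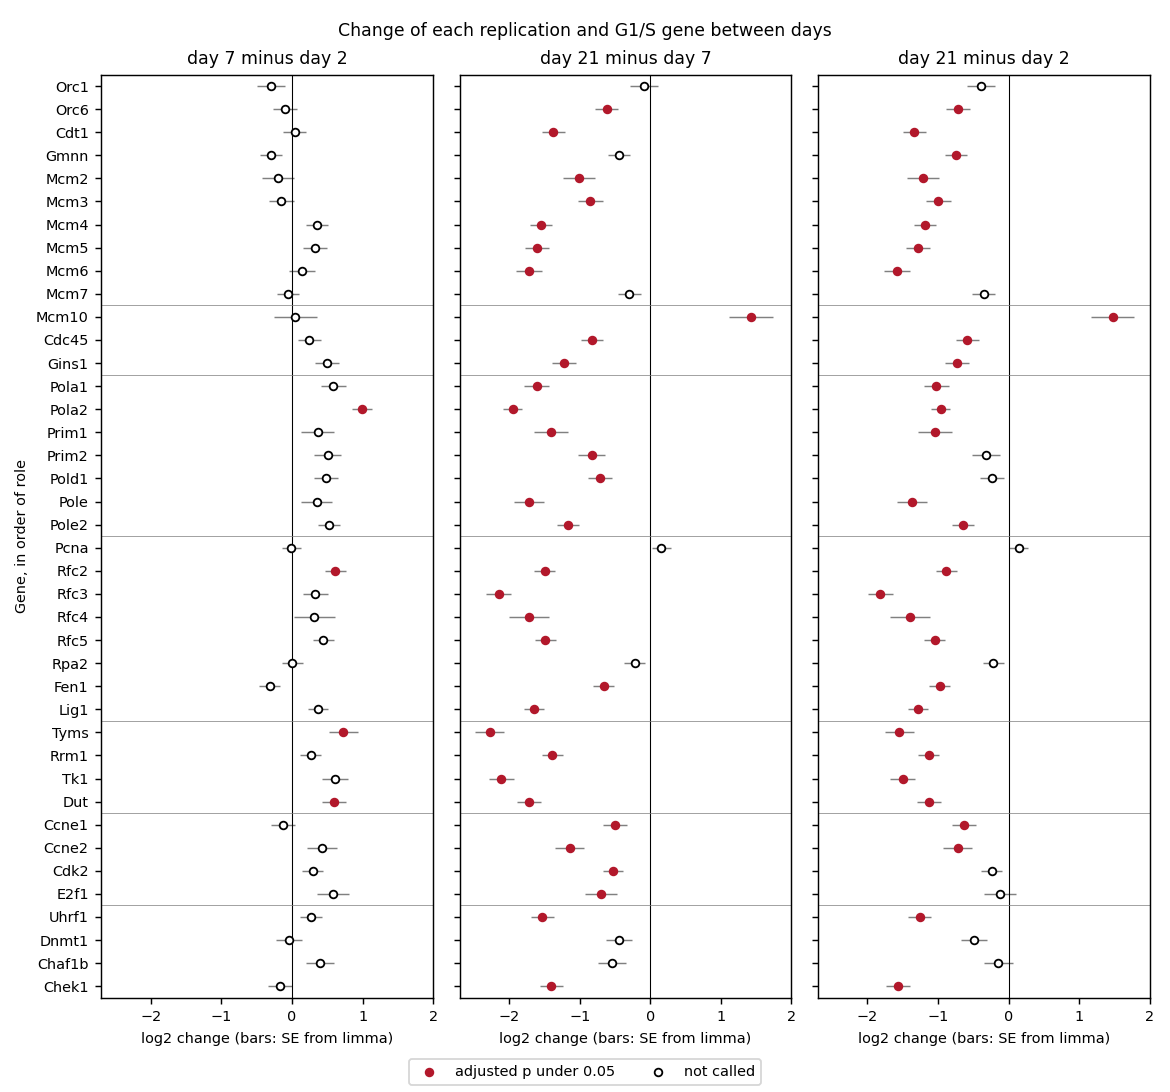
Log2 change of each gene between days 2 and 7, days 7 and 21 and days 2 and 21, with the SE from limma; filled points passed an adjusted p of 0.05. In the middle panel 32 points are filled left of 0 and 1, Mcm10, right of it; in the left panel 4 are filled.

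Genes of the group differed in which comparisons called them. Over all 14217 genes 998 were higher and 627 lower between days 2 and 7, against 1954 and 3469 between days 7 and 21, and the 4 rises of 40 are near the 7.02% of all genes called higher. Pola2, Rfc2, Tyms and Dut were the 4 genes that both rose to day 7 and fell to day 21. Another 24 were called lower at day 21 than at either earlier day with no call between days 2 and 7. Of these 24, Cdc45, Pole2, Ccne1 and Ccne2 lost the call between days 2 and 21 under at least 1 other setting. Orc6 and Ccne1 lost that between days 7 and 21. Arrays of days 2 and 21 overlapped for Ccne2. Prim2, Pold1, Cdk2 and E2f1 were called lower between days 7 and 21 alone. Gmnn was called only between days 2 and 21, and Mcm10 is the gene called higher. The 6 genes with no call in any comparison were Orc1, Mcm7, Pcna, Rpa2, Dnmt1 and Chaf1b. The count of 4 rises was 1 without day 2 replicate 1, day 2 replicate 2 or day 7 replicate 2, 2 without day 2 replicate 3, day 7 replicate 1, day 7 replicate 3, day 21 replicate 1 or day 21 replicate 2, and 5 without day 21 replicate 3. With each array centred on its median it was 1, Pola2, the only gene whose rise was called under every setting tried. Of the calls over all probe sets between days 2 and 7, 61.5% were higher as deposited and 41.5% with that centring. Between days 7 and 21 the shares were 36.6% and 48%, and the centring moved the median of all probe sets there from 0.02 to 0.13. Between days 2 and 21 the shares were 35.95% as deposited, 39.59% with that centring and 47.3% after a further quantile normalization. The quantile normalization gave 53.55% between days 2 and 7 and 48.52% between days 7 and 21. Leaving out single arrays gave limma adjusted p-values of 0.0271 to 0.102 for Rfc2, 0.0204 to 0.171 for Tyms and 0.048 to 0.179 for Dut. Day 7 means lay below day 2 means for 11 genes, Fen1 furthest with a change of -0.32 ± 0.15, and limma called 0 of them.

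Other replication genes also fell from day 7 to day 21. Of 46 listed, 39 were measured, and from day 7 to day 21 limma called 19 lower and 0 higher, with a median log2 change of -0.52. Over all genes 24.4% were called lower and 13.7% higher in that comparison. Dscc1, of the loader for cohesion at forks, fell most of them (-2.78 ± 0.17, limma adjusted p = 5.63e-07), followed by Rnaseh2b (-2.01 ± 0.24), Timeless, a fork protection protein (-1.68 ± 0.24), and Rpa3, a small RPA subunit (-1.45 ± 0.16). The day 21 means of Dscc1 and Timeless, log2 4.22 and 3.60, lay below the low end, so the size of their falls is open to background. From day 2 to day 7, Rpa1 (0.80 ± 0.14), Orc5 (0.70 ± 0.17) and Mcm9 (0.58 ± 0.16) rose and 0 fell, and 3 of 39 is near the 7.02% of all genes called higher. Of 40 measured mitosis genes, 37 fell from day 7 to day 21 and 0 rose, with a median of -1.72. Cdk1, the mitotic kinase (-3.76 ± 0.21), Top2a, a topoisomerase (-3.32 ± 0.14), Ccnb2, a cyclin B (-3.17 ± 0.16), and Ttk, a spindle checkpoint kinase (-3.11 ± 0.20), fell most. The day 21 mean of Ttk, log2 3.40, also lay below the low end. From day 2 to day 7, 4 of the 40 rose, Top2a, Kif20a, Aurkb and Nusap1, a count also near that 7.02%. The mitosis promoters had an E2F word in 2.56% of 39 windows and TTTGAA in 76.9%, against 48.6% and 8.11% in the replication and G1/S group. In the other replication genes the shares were 40.5% and 32.4% of 37 windows.

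Regulators of G1 include cyclins, kinases, their inhibitors and E2F factors. Of 29 measured of 33 listed, 13 fell and 5 rose from day 7 to day 21, with a median of -0.33, beside 24.4% of all genes called lower and 13.7% higher. The count of 5 rises is near that background. Ccnd1, the cyclin D1 that starts the G1 programme, was at log2 9.01, 9.31 and 8.37 at day 7 and 7.65, 6.70 and 7.03 at day 21, and fell by 1.77 ± 0.30. Its kinase Cdk4 fell by 1.34 ± 0.22, E2f8, a repressive E2F factor, by 1.75 ± 0.19 and Tfdp1, the dimer partner of E2F factors, by 1.24 ± 0.17. E2f8 ended at a day 21 mean of log2 3.62, below the low end. Cdkn1a, the p21 inhibitor of cyclin-dependent kinases, was at log2 8.82, 9.09 and 8.75 at day 7 and 10.13, 10.01 and 9.79 at day 21, and rose by 1.08 ± 0.16 (limma adjusted p = 0.000227). Cdkn1c, the p57 inhibitor, fell by 1.69 ± 0.15. Cdkn2c, the p18 inhibitor of Cdk4 and Cdk6, rose by 1.01 ± 0.15 to day 7 and fell by 1.18 ± 0.15 to day 21. E2f2, grouped with the activating E2F factors, rose by 1.38 ± 0.24 from day 7 to day 21 (limma adjusted p = 0.000771), the opposite direction to E2f1. So did the transcription factors Myc (1.04 ± 0.20), E2f4 (0.78 ± 0.18) and E2f6 (0.55 ± 0.16), with E2f6 having fallen by 0.87 ± 0.16 to day 7. The pocket protein genes Rbl1 and Rbl2 fell by 0.68 ± 0.15 and 0.82 ± 0.16, the latter after a rise of 0.84 ± 0.16 to day 7.

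Markers of other cell types changed in the same comparisons. Over all genes 13.7% were called higher and 24.4% lower from day 7 to day 21. The shares were 7.02% and 4.41% from day 2 to day 7, and 8.8% and 15.3% between days 2 and 21. From day 7 to day 21, 16 of 17 macrophage markers rose and 7 of 9 endothelial markers fell, with endothelial means of log2 6.86 to 7.07 at day 7 and 5.65 to 6.15 at day 21. From day 2 to day 7, 11 of the 17 macrophage markers fell and 2 of the 9 endothelial markers rose. Of 13 epithelial markers, 5 rose and 1 fell from day 7 to day 21, with a median of 0.62. From day 2 to day 7, 0 of them rose and 1 fell, near the shares of all genes. Scgb1a1, a club cell protein, fell 5.12-fold to day 7 and rose 8.91-fold to day 21. From day 7 to day 21 Epcam and Krt8 rose 2.59-fold and 2.47-fold, with Krt8 arrays of these days overlapping. The epithelial marker called lower was Sftpc, which fell 2.28-fold (limma adjusted p = 0.0112). Between days 2 and 21, 4 of the 17 macrophage markers were higher and 0 lower, with a median of 0.50. Of the 9 endothelial markers, 1 was higher and 3 lower in that comparison, with a median of -0.65, and of the epithelial markers 1 was higher and 0 lower. Both counts of 1 are near the 8.8% of all genes called higher. The part of these cell types in the replication results was not tested. Fibroblast markers had a median log2 change of 0.09 from day 2 to day 7 and 0.00 from day 7 to day 21, when 1 of 13 rose and 3 fell. The 3 were Tcf21 (-2.44 ± 0.26), Pdgfra (-1.40 ± 0.23) and Fbn1 (-1.29 ± 0.22), and Dcn rose by 1.29 ± 0.27. The median thus covers changes in both directions, and 3 of 13 is near the share of all genes called lower.

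**Figure D4:**
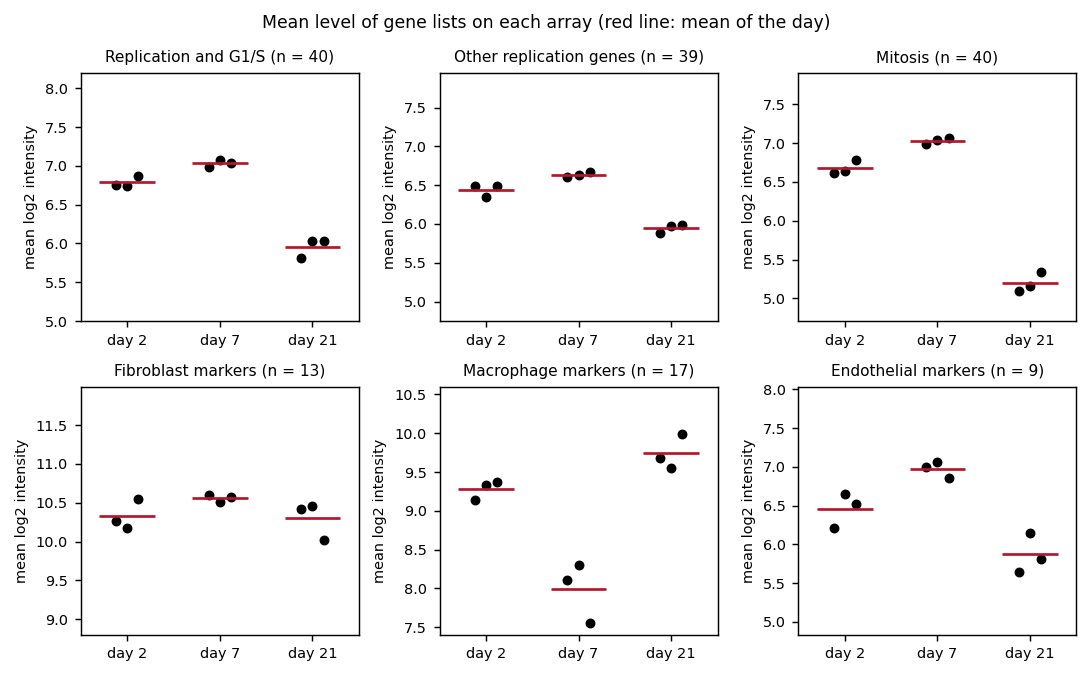
Mean log2 intensity per array of the replication and G1/S genes, other replication genes, mitosis genes and the markers of fibroblasts, macrophages and endothelium, by postnatal day, with the mean of the day as a red line. The replication and G1/S mean was 6.74 to 6.88 at day 2, 6.99 to 7.08 at day 7 and 5.81 to 6.03 at day 21, while the macrophage mean was lowest at day 7.

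Several probe sets were present for 10 of the genes, 24 in all. From day 7 to day 21 all probe sets were called lower for Orc6 (3 of 3) and Rfc5 (2 of 2), and those of Mcm10 were called in opposite directions. For Tk1 2 of 3 and for Cdc45 2 of 4 were called lower, and for Lig1, Dut, Cdk2 and Ccne2 1 of 2. The second Lig1 probe set changed by -0.15 ± 0.18, where the first fell by 1.65, and the second Tk1 probe set fell by 1.51 ± 0.18. Neither Gmnn probe set was called in that comparison.

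The size of the fall was also set beside the promoter words. Of 18 measured genes with an E2F match, 14 fell from day 7 to day 21 with a median log2 change of -1.39, and of 18 with a window and no match 15 fell and 1 rose with a median of -0.83. Mcm7, with 2 matches printed above, was not called, and Tk1 and Pola2, with no match in the window, fell by 2.11 and 1.95. No test was made of this difference.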

How the data were processed

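Expression was measured on 9 single-colour Affymetrix arrays. The authors deposited intensity values on a linear scale. Per the submitters' processing notes they come from RMA (affy), with version and filters not given in the sources used here. RMA compresses changes of dim probe sets. Log2 of the deposited intensities was tested over 31042 probe sets, leaving out 57 control probe sets. limma 3.58.1 in R 4.3.3 fitted a mean per day over all 9 arrays, without covariates, with 6 residual degrees of freedom and two-sided tests. P-values were adjusted by Benjamini-Hochberg over all probe sets of a comparison. Calls are at an adjusted p under 0.05, errors are SEs from limma, and n is 3 arrays per day. The p-values measure the spread between pooled litters. In the platform annotation 20826 probe sets had 1 symbol, 436 several and 9780 none. Members and lists were chosen with earlier results of these data known. Every member could be named, and of the other lists up to 4 called genes per comparison with the largest change, plus G1 regulators called in at least 2 comparisons. Myc, E2f4 and the lymphocyte markers below the low end were named outside this rule. With Myc and E2f4, all 5 G1 regulators called higher from day 7 to day 21 are named. Promoter windows are from RefSeq, assembly GRCr8. The procedure was tested on simulated data. The alternatives were array centring, quantile normalization, leaving out dim probe sets, other ways of choosing probe sets, fewer arrays, moderation with trend, a litter block and each array left out.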

Additional observations from a re-analysis of the deposited data

How the results depend on the processing

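No change of direction was seen in any called gene of the group under the settings tried. For Mcm10 and Dut no setting used the dimmer probe set alone, so a reversal there could not appear. The dimmer Mcm10 probe set was itself called lower between days 7 and 21. The 4 calls between days 2 and 7 became 1 with each array centred on its median and 2 when only the arrays of these days were used, and ranged from 1 to 5 when single arrays were left out; of the 4, 1 held under every setting. The median change there was 0.22 with centring and 0.26 to 0.34 with single arrays left out. Between days 7 and 21 the median of -1.20 was -1.09 with centring, -1.08 after quantile normalization, -1.06 with the mean of a gene's probe sets, -1.30 with the most variable one and -1.28 to -1.08 with single arrays left out (-1.08 without day 21 replicate 1), and 29 of 33 calls held under every setting; the calls numbered 29 to 34 with single arrays left out. Between days 2 and 21 the median of -0.97 was -0.86 after quantile normalization and -1.01 to -0.89 with single arrays left out, and 24 of 30 calls held under every setting; the calls numbered 27 to 30. With litter number as a replicate block limma called 3, 34 and 30 genes of the group in the 3 comparisons, in the order given. Arrays with the same litter number did not deviate together in all pairs of days (correlations of -0.24 to 0.41), so the numbers were not taken to pair the samples. Dim genes such as Orc1 are limited by signal over background, and 3 arrays per day limit every count.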

Other observations

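Rrm2, the small subunit of ribonucleotide reductase, could be followed only through a pair of probe sets that the annotation gives to both Rrm2l1 and Rrm2. On the brighter, levels were log2 8.73, 8.82 and 8.55 at day 2, 9.17, 9.25 and 9.26 at day 7 and 6.57, 6.62 and 7.28 at day 21. The days did not overlap, and the fall from day 7 was 5.29-fold (log2 change -2.40 ± 0.19, limma adjusted p = 3.64e-06). On the dimmer it was 4.82-fold (log2 change -2.27 ± 0.19, limma adjusted p = 4.11e-06). Neither was called between days 2 and 7 (0.52 ± 0.19 and 0.33 ± 0.19, limma adjusted p = 0.126 and 0.338). Signal from Rrm2 and from Rrm2l1 cannot be told apart on these probe sets.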
